A study of Mus musculus with 4 samples.

Results

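The interleukin genes of the spleen were compared between mice lacking the transcription factor Nrf2 and wild-type littermates. The genes were taken by name: every probe set outside the array controls whose only gene symbol in the platform annotation begins with Il and a digit. This gave 53 probe sets for 45 genes, out of 12422 probe sets outside the controls, of which 10833 carry a single symbol and cover 8251 genes. By their names, 20 genes (23 probe sets) are ligands, 23 genes (28 probe sets) are receptors or receptor chains, and 2 genes (2 probe sets) are regulators, the receptor antagonist gene Il1rn and the IL-18 binding protein gene Il18bp.

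Total RNA was taken from whole spleens of female mice aged 5 months, and each group has 2 arrays. The knockout group is nrf2 -/- and the control group nrf2 +/+, and both came from interbred heterozygotes. Those heterozygotes descend from nrf2 +/+ mice on a C57B6/SJL background and nrf2 -/- mice on a C57B6/129SVJ background, so the deletion and strain-derived sequence near it cannot be told apart. All animals received the same diet and no treatment is stated, and per the labels the age lies before severe autoimmune disease. The labels do not tell whether RNA was pooled over animals for an array, and the p-values therefore reflect only array-to-array spread, which may be technical. In whole spleen, fewer cells of a type and less RNA per cell cannot be told apart.

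Interleukins are small secreted proteins by which leukocytes and stromal cells signal to each other. Most are made in small amounts and only after a stimulus, whereas their receptors are carried at rest by the cells that wait for the signal. Members of the IL-1 family signal through receptors that recruit the adaptor MyD88, while most others use receptor chains coupled to Janus kinases and STAT transcription factors. Several chains are shared: gp130, encoded by Il6st, serves IL-6 and IL-11, and the chain encoded by Il4ra serves IL-4 and IL-13. Nrf2 itself binds antioxidant response elements, short DNA motifs near genes of detoxification.

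Because the knocked-out factor binds that element, the core motif TGACNNNGC was searched on both strands of the RefSeq promoters (GRCm38.p6, 300 bases, from 250 before to 50 after each gene start). A promoter was found by symbol for 36 of the 45 genes, with 48 start sites in all. Of these 48 promoters, 6 held the motif (12.5%), against 12.4% of all 32851 promoters. The 6 genes are Il15ra, Il4ra, Il4, Il5ra, Il9r and Il12rb2. The 3 stretches below belong to the receptor genes Il15ra and Il4ra, which were bright in the spleen, and to the ligand gene Il4. Capitals mark the motif, which in Il15ra reads on the opposite strand, and each stretch is written 5′ to 3′ along the gene.
Il15ra, chr2:11705670-11705699, plus strand: gggtggggatGCTGAGTCAcagatctgtca
Il4ra, chr7:125552201-125552230, plus strand: ggcatgtaaaTGACCGTGCacggggtgggg
Il4, chr11:53617371-53617400, minus strand: gacaaacacaTGACTTGGCtatgctgtatc
A motif match is a description of these letters and not a measured binding site.

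The arrays were of unequal character. Across the 7452 probe sets bright enough to test, Pearson's r (over probe sets, which are not independent replicates) lay between 0.936 and 0.946 for the 3 pairs without wild-type replicate 1 and between 0.845 and 0.848 for the 3 pairs with it. For the Gapdh control, the signal near the 3′ end exceeded that near the 5′ end 88.3-fold in wild-type replicate 1 and between 8.07-fold and 34.8-fold in the other arrays, and for beta-actin the ratios lay between 8.86 and 19.3. Nfe2l2, the targeted gene, read 202 and 178.6 without Nrf2 against 3537 and 6321 with it (log2 difference -4.61, SE 0.47, limma adjusted p = 0.0226). Whether its probe set lies in the deleted part is not stated. Each group of spleens expressed markers of the expected leukocytes: the summed intensity of the B cell list (8 genes) lay between 169442 and 336662, and that of the T cell list (8 genes) between 34814 and 65975. The 5 measured exocrine pancreas markers summed to 5640 and 6513 without Nrf2 and 66755 and 16322 with it.

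The first question was which interleukins and receptors were above background. The files hold no detection calls, so a probe set was counted as above background in a genotype when both arrays lay over an intensity of 185, the 25th percentile of all values. This level lies close to that of 15 probe sets for bacterial genes, whose 90th percentile was between 157.4 and 197.5 in the 4 arrays. Of the 28 receptor probe sets, 19 passed in knockout spleen (67.9%) and 18 in wild-type spleen (64.3%), while over all 12422 probe sets the shares were 69.8% and 68.8%. Of the 23 ligand probe sets, 9 passed in each genotype (39.1%). Both regulators passed in both genotypes. With the bacterial level of each array in place of 185, these counts were the same. A higher level was the 90th percentile of 39 probe sets for genes of lens, retina, germ cells and muscle (695.8 to 1016 by array). Over it, the same 3 ligands passed in each genotype, Il1b, Il16 and Il18. Of the receptor probe sets, 13 passed in knockout and 11 in wild-type spleen. The share of all probe sets over this level was not counted, so these counts have no background beside them.

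The ligands above background in all 4 arrays were Il1a, Il1b, Il3, Il12b, Il16 and Il18. Il15, Il7 and 1 of the 4 Il4 probe sets passed in knockout spleen alone, and Il5, Il9 and Il10 in wild-type spleen alone. A pass in a single genotype is a count and not a test of a difference.

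**Figure D1:**
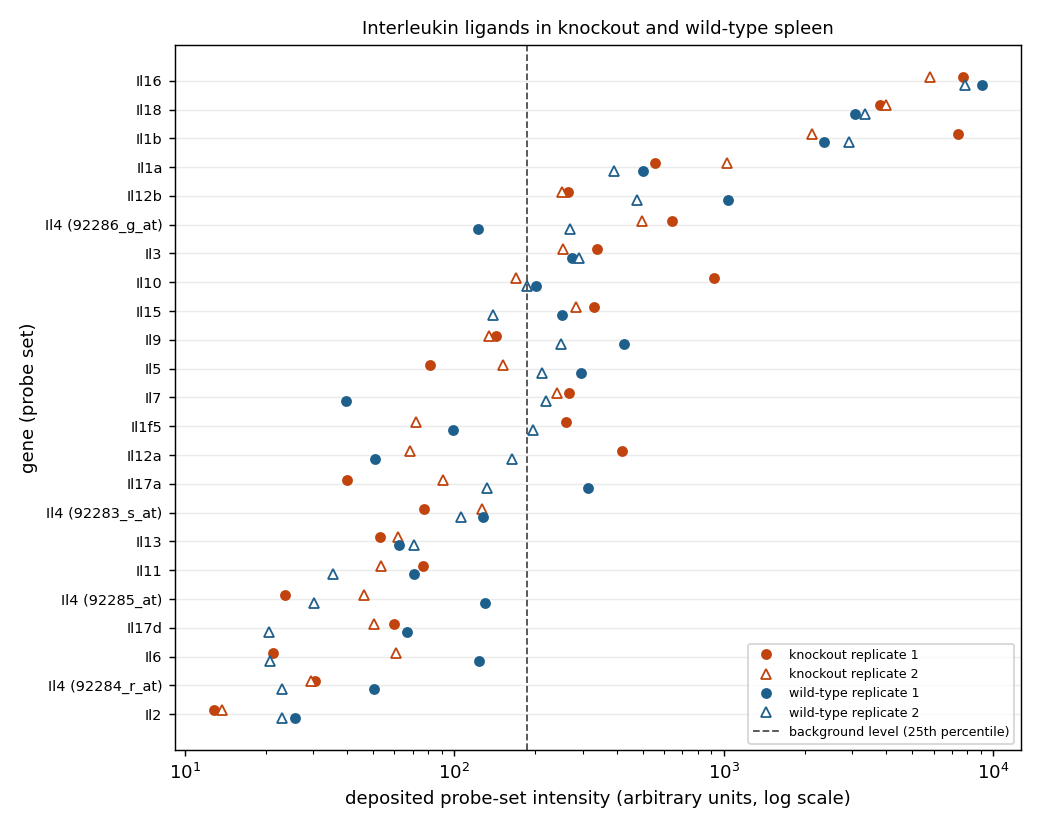
Deposited intensity (log axis) of the 23 ligand probe sets in the 2 knockout arrays (orange) and 2 wild-type arrays (blue), ordered by mean. The dashed line is the background level of 185, and 6 ligands lie to its right in all 4 arrays.

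Among the tested ligands, the IL-12 subunit gene Il12b had the widest gap between genotypes. Il12b encodes the p40 chain, which pairs with p35 to form IL-12 and with p19 to form IL-23. It read 264.2 and 250.7 in the nrf2 -/- arrays against 1036 and 475.1 in the nrf2 +/+ arrays. Both wild-type arrays lay above both knockout arrays, and the wild-type arrays differed 2.18-fold from each other. The log2 difference was -1.45 (SE 0.65, 95% confidence interval -2.96 to 0.067, n = 2 per group), with a limma p of 0.0586 and an adjusted p of 0.992. Without wild-type replicate 2 it was -2.01, with the floor at the 40th percentile it was -0.56, and without wild-type replicate 1 Il12b was too dim to test. Il12a, which encodes the p35 partner, read 420 and 68.7 without Nrf2 and 50.9 and 163.4 with it, so only knockout replicate 1 exceeded the background level.

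The IL-1 ligands were detected throughout. Il1a, which encodes the cell-associated form, read 555.3 and 1030 without Nrf2 against 502.1 and 390.6 with it. The knockout arrays were the higher ones without overlap, with a log2 difference of 0.77 (SE 0.56, limma adjusted p = 0.992). Il1b, the secreted inflammatory form, read 7402 in knockout replicate 1 but 2130 in the other knockout array, with wild-type values of 2346 and 2920. Here 1 knockout array was the highest of all and the other the lowest, and the log2 difference of 0.60 (SE 0.60) became -0.30 without knockout replicate 1. Il1rn encodes the antagonist that occupies the IL-1 receptor without signalling. It read 2030 and 1313 without Nrf2 and 876.5 and 1437 with it, and the groups overlapped (log2 difference 0.54, SE 0.46). Il1f5 counts as a ligand by its name but encodes an antagonist of the IL-36 receptor, and it was above the level in 1 array of each genotype.

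IL-18 is another cytokine of the IL-1 family, made as a precursor by macrophages and cut by caspase-1. Il18 read 3788 and 3979 without Nrf2 against 3072 and 3333 with it. These 4 values were close together, with knockout above wild type in both arrays and a log2 difference of 0.28 (SE 0.38, limma adjusted p = 0.992). Il18bp, whose product binds and neutralises IL-18, read 3530 and 3134 against 3693 and 3550. Its knockout arrays were lower without overlap as deposited, by a log2 difference of only -0.12 (SE 0.38).

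Il16, which encodes a chemoattractant for CD4+ cells kept as a precursor in resting lymphocytes, read 7724 and 5807 without Nrf2 against 9080 and 7821 with it. Knockout was lower without overlap, by -0.33 on the log2 scale (SE 0.41, limma adjusted p = 0.992), and knockout replicate 1 lay just under wild-type replicate 2. Markers of lymphocytes measured lower too. Over all 7452 tested probe sets, 12.2% were lower without overlap. In the B cell list, 8 of 10 tested probe sets were lower in knockout spleen and 6 of them without overlap, with a median log2 difference of -0.48. Fcer2a, the low-affinity IgE receptor, had the widest gap of that list, -1.51 on the log2 scale (SE 0.42, limma adjusted p = 0.992), with an unadjusted limma p of 0.00771. The list summed to 197079 and 169442 without Nrf2 and 336662 and 205253 with it, and each of its 8 measured genes exceeded the background level in some array. In the T cell list, 7 of 8 were lower, with a median of -0.37. Their part in the Il16 value, and in that of Il4ra, was not tested.

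Il3, a growth factor for early myeloid and mast cells, was near the background level with overlapping groups, at 337.2 and 253.9 without Nrf2 and 274.4 and 289.9 with it.

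Il2, Il6 and Il13 were under the background level in all 4 arrays. Il2, the T cell growth factor, read between 12.8 and 25.6 in all 4 arrays. Il13, a type 2 cytokine, read between 53.1 and 71 and Il6, an acute inflammatory cytokine, between 20.7 and 123. Il17a, of Th17 cells, read 39.9 and 91 in the knockout arrays, with 313.8 for wild-type replicate 1 and 131.9 for wild-type replicate 2. Only 1 array of the 4 thus showed Il17a above the level.

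The type 2 cytokine genes Il5 and Il9 were a little over the level in wild-type spleen and under it in knockout spleen. Il5, the growth factor of eosinophils, read 81.6 and 151.9 without Nrf2 against 294.3 and 211.8 with it. Il9, known from mast cell growth, read 143.3 and 134.9 against 427.3 and 249.5. Neither reached the mean intensity needed for the test, and both lie within the range of the bacterial controls in knockout spleen, so no fold is given. Il5ra, the receptor chain for IL-5, read 7.9 and 8.1 without Nrf2 and 62.8 and 118.6 with it, all under the level, where values have no order.

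Il4, the defining type 2 cytokine, was covered by 4 probe sets that did not read alike. The probe set 92286_g_at read 642.5 and 495.2 without Nrf2 and 122 and 269.1 with it, and the knockout arrays were the higher ones. The other 3 probe sets read between 23 and 129.9 in every array, below the level. A control probe set for Il4 that is no member read 145.5 and 212.7 without Nrf2 and 78.8 and 124.1 with it. Only 1 of these control values, 212.7 in knockout replicate 2, was over the level, so no order of the genotypes is read from them.

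Il10, which restrains macrophages and dendritic cells, stood out in a single array. Its intensity was 923.2 in knockout replicate 1 but 169.6 in the other knockout array, with wild-type values of 201.7 and 186.3. The control probe set for the same gene read 48.8, 52.1, 71.8 and 49.3 in that order and gave no such peak. Knockout replicate 1 was also the highest array for Il1b, Il12a, Il18rap and Il1f5, among others. These are picked examples, and other members, such as Il12b and Il17a, were highest in wild-type replicate 1. The erythroid list had its lowest sum in knockout replicate 1, 19489, against 100981 in the other knockout array and 95815 and 88487 in the wild-type arrays. Each of its 5 measured genes was lowest there and exceeded the background level in some array. All 5 tested probe sets of the list measured lower in knockout spleen, 0 of them without overlap, against 12.2% of all tested probe sets. Its part in the values of Il10, Il1b, Il12a and Il18rap was not tested.

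The homeostatic cytokine genes Il7 and Il15, which sustain lymphocytes, were near or under the background level. Il7 read 266 and 239.6 in the knockout arrays, with 39.8 for wild-type replicate 1 and 219.7 for wild-type replicate 2. The 3 arrays other than wild-type replicate 1 lay within a narrow range for Il7. Il15 read 330.7 and 282.3 against 252 and 138.9, with knockout higher in both arrays but all values near the level. The remaining ligand genes, Il11 and Il17d, read between 20.5 and 76.4 in all arrays.

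Among the receptors, 17 probe sets were above background in all 4 arrays, for 13 genes: Il1r2, Il2rb, Il3ra, Il4ra, Il6ra, Il6st, Il7r, Il10ra, Il10rb, Il15ra, Il17ra, Il18r1 and Il27ra. Il1r1 and Il13ra1 passed in knockout spleen alone, each because of a low value in wild-type replicate 1. Il18rap passed in wild-type spleen alone.

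**Figure D2:**
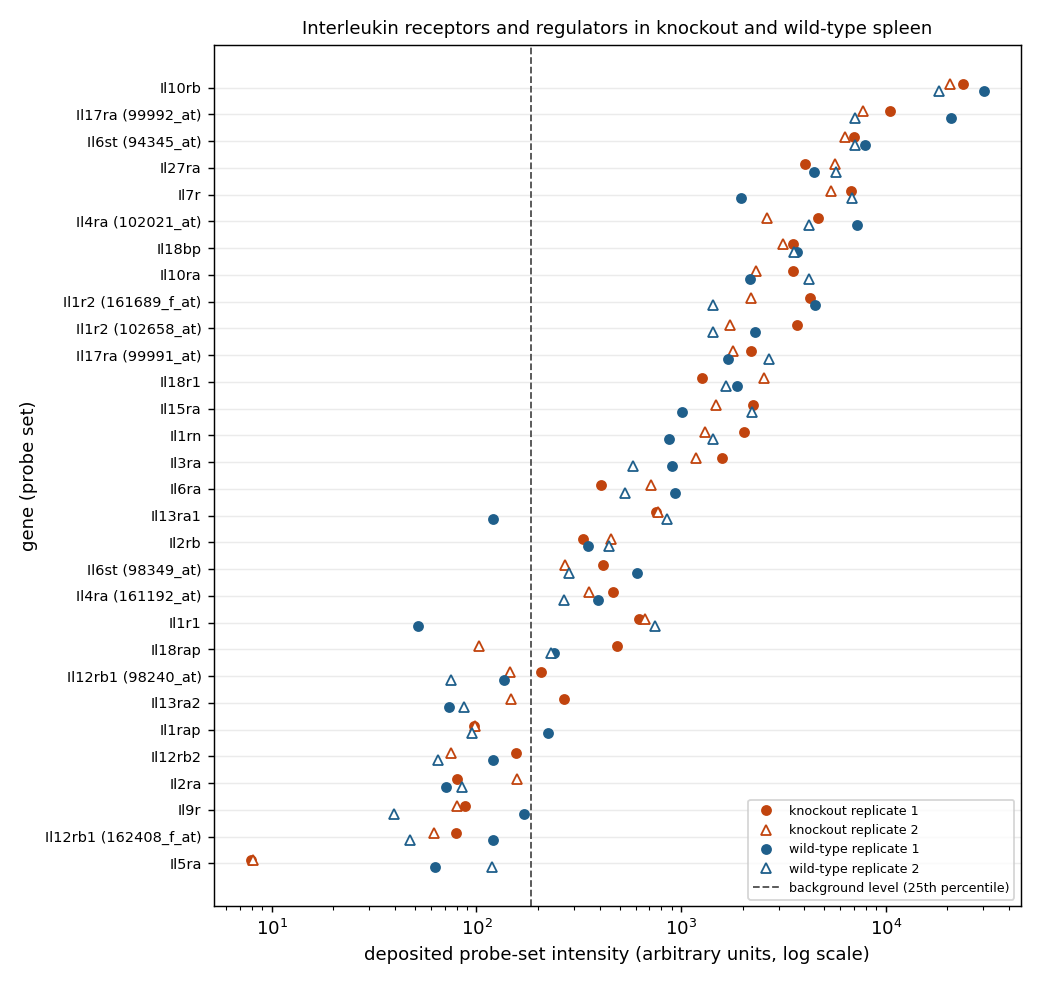
Deposited intensity (log axis) of the 28 receptor and 2 regulator probe sets in the 2 knockout arrays (orange) and 2 wild-type arrays (blue), ordered by mean. Wild-type replicate 1 (filled blue) lies far left of the other arrays for Il7r, Il13ra1 and Il1r1.

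Il3ra, the specific chain of the IL-3 receptor found on basophils, mast cells and some dendritic cells, was the receptor gene with the smallest p. It read 1580 and 1179 without Nrf2 against 899.3 and 584 with it. Both knockout arrays lay above both wild-type arrays, with a log2 difference of 0.91 (SE 0.46, 95% confidence interval -0.15 to 1.97), a limma p of 0.0817 and an adjusted p of 0.992. The difference was between 0.60 and 1.22 with 1 array left out. In the mast cell and basophil list, 4 of 4 tested probe sets measured higher in knockout spleen. Only 1 of them, for Kit, did so without overlap, against 14.2% of all tested probe sets. The groups overlapped for the tested probe sets of Cma1, Tpsb2 and Mcpt8. The list's 12 probe sets summed to 7227 and 8278 without Nrf2 and 7408 and 5232 with it, and each of its 7 genes exceeded the background level in some array. Their part in the Il3ra value was not tested.

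Il6st encodes gp130, the signal-transducing chain of the IL-6 family. Its bright probe set read 7017 and 6337 without Nrf2 against 7941 and 7066 with it. Knockout was lower without overlap, by -0.17 on the log2 scale (SE 0.39, limma adjusted p = 0.992), and the nearest arrays differed by little. The dim Il6st probe set read 415.3 and 270.8 against 606.3 and 281.9, and there the groups overlapped. Il6ra, the IL-6 binding chain, read 406.5 and 711.1 without Nrf2 and 938.1 and 533.5 with it, again with overlap (log2 difference -0.40, SE 0.57).

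Measured differences of both signs were found among the receptors for cytokines of the IL-2 and IL-4 groups. Il7r, the IL-7 receptor chain of naive and memory T cells, read 6784 and 5392 in the knockout arrays, with 1952 for wild-type replicate 1 and 6803 for wild-type replicate 2. The difference of 0.73 (SE 0.60) turned to -0.17 without wild-type replicate 1 and was 1.63 without wild-type replicate 2, where the limma adjusted p of 0.0714 (up to 1 under other settings) was the smallest found for any member under any setting. In wild-type replicate 1 the T cell list had its highest sum, 65975, while its member Cd3g, a chain of the T cell receptor complex, was lowest there, at 974.5 against 1767 to 3012.8. Over all tested probe sets, 12.2% were lower without overlap. In the T cell list, 7 of 8 tested probe sets were lower in knockout, 5 of them without overlap. The list sums were 37426 and 34814 in knockout and 45740 in wild-type replicate 2. Each of the 8 measured genes of the list exceeded the background level in some array. Its part in the Il7r values was not tested.

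Il4ra read 4676 and 2621 without Nrf2 and 7263 and 4209 with it on its bright probe set. Knockout replicate 1 exceeded wild-type replicate 2, so the groups overlapped, and the log2 difference was -0.66 (SE 0.48, limma adjusted p = 0.992). Without knockout replicate 1 it was -1.08 and without knockout replicate 2 it was -0.24. The second Il4ra probe set was dim, at 465.8 and 353.2 against 394.4 and 268.1, and measured slightly higher in knockout spleen. Il13ra1, which pairs with the Il4ra chain, read 752.2 and 772.2 in the knockout arrays, with 120.5 for wild-type replicate 1 and 856.3 for wild-type replicate 2. Its difference of 0.94 (SE 0.76) was -0.17 without wild-type replicate 1.

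Il2rb, the chain shared by the IL-2 and IL-15 receptors, read 332.8 and 455 without Nrf2 and 348.9 and 443.7 with it. Il15ra, which presents IL-15 to neighbouring cells, read 2233 and 1479 against 1015 and 2208. The genotypes overlapped for both genes, and the log2 difference of Il15ra was 0.28 (SE 0.49). Il2ra, the high-affinity IL-2 receptor chain of activated and regulatory T cells, was below the level in all 4 arrays, at 80.5 and 158.6 without Nrf2 and 70.6 and 84.5 with it. Il9r read between 39.6 and 170.7 and was also below it.

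Of the IL-1 family receptors, Il1r1, the signalling receptor for IL-1, read 622.4 and 667 in the knockout arrays, with 51.9 for wild-type replicate 1 and 746.2 for wild-type replicate 2. Its difference of 0.79 (SE 0.75) was -0.21 without wild-type replicate 1, and with any other array left out Il1r1 was too dim to test. Il1r2, the decoy receptor that binds IL-1 without signalling and is abundant on neutrophils, was measured by 2 probe sets. The first, 102658_at, read 3680 and 1739 without Nrf2 and 2287 and 1426 with it, and the second, 161689_f_at, read 4273 and 2189 against 4506 and 1432.

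On both Il1r2 probe sets wild-type replicate 2 was the lowest array and knockout replicate 2 the second lowest, and the groups overlapped. The log2 differences were 0.49 (SE 0.49) for the first and 0.27 (SE 0.61) for the second. The neutrophil list had its lowest sum in wild-type replicate 2 as well, at 173467 over 13 probe sets, against 708104 in wild-type replicate 1 and 502700 and 566969 in the knockout arrays. All 12 tested probe sets of that list measured higher in knockout spleen, 7 without overlap, against 14.2% of all tested probe sets. All 10 genes of the list exceeded the background level in some array. Its part in the Il1r2 values was not tested. Il1rap, the accessory chain of the IL-1 receptor, was over the level only in wild-type replicate 1, at 222.7.

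For the IL-18 receptor, Il18r1 read 1270 and 2550 without Nrf2 and 1880 and 1652 with it, and the log2 difference was 0.03 (SE 0.45). Its partner Il18rap read 484.4 and 102.9 without Nrf2 against 240.3 and 231 with it. In both genes the knockout arrays lay on either side of the wild-type arrays, in opposite order. Il18r1 was lowest and Il18rap highest in knockout replicate 1.

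The genotypes overlapped for both receptor genes of IL-10. Il10rb, a chain shared with other class II cytokine receptors, read 23742 and 20495 without Nrf2 and 30137 and 18274 with it. Il10ra, the ligand-binding chain, read 3526 and 2328 against 2167 and 4196. The log2 differences were -0.089 (SE 0.45) and -0.074 (SE 0.47), with 95% confidence intervals from -1.13 to 0.95 and from -1.16 to 1.01, so differences of up to about this size in either direction are not excluded by these arrays.

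Il27ra, the IL-27 receptor chain, read 4044 and 5623 without Nrf2 and 4452 and 5691 with it, a difference of -0.078 (SE 0.41). The IL-12 receptor genes Il12rb1 and Il12rb2 were at background: their 3 probe sets read between 47.4 and 207.5, with a single value over the level, for Il12rb1 in knockout replicate 1. Il13ra2, a decoy receptor for IL-13, read 267.4 in knockout replicate 1 and between 73.7 and 147 in the other 3 arrays.

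Il17ra, the receptor chain for IL-17A, was measured by 2 bright probe sets that ranked the arrays differently. Probe set 99992_at read 10537 and 7738 in the knockout arrays, with 20730 for wild-type replicate 1 and 7102 for wild-type replicate 2. Probe set 99991_at read 2199 and 1800 in the knockout arrays, with 1685 for wild-type replicate 1 and 2695 for wild-type replicate 2. Wild-type replicate 1 was thus the highest array on the first and the lowest on the second. The log2 differences were -0.43 (SE 0.57) and -0.10 (SE 0.42). Leaving out wild-type replicate 1 gave 0.35 for the first, and leaving out wild-type replicate 2 gave -1.20.

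**Figure D3:**
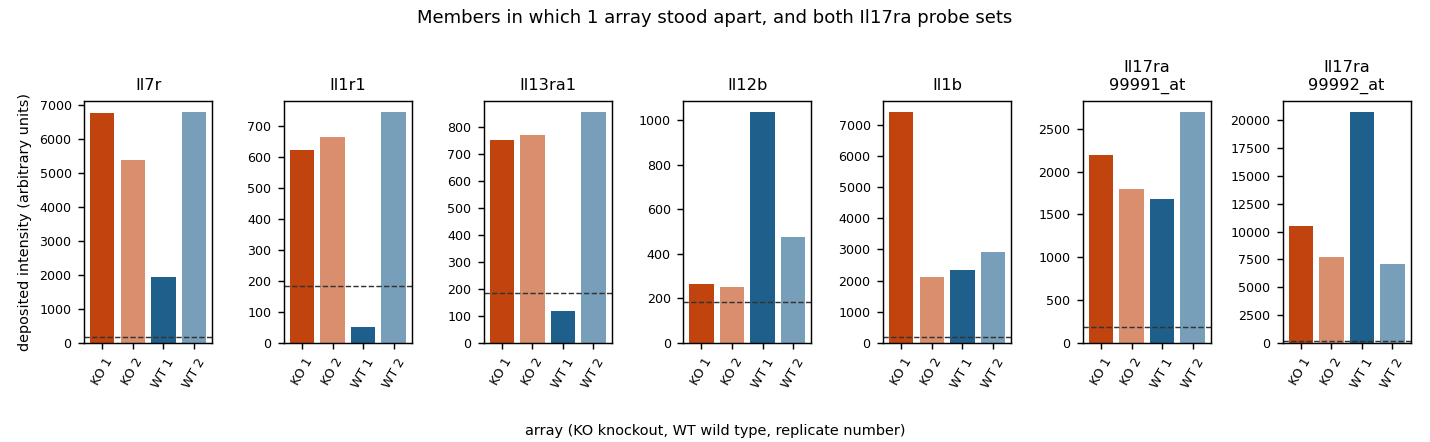
Deposited intensity of 6 genes in the 4 arrays (KO knockout in orange, WT wild type in blue; bars start at 0, dashed line at 185). Wild-type replicate 1 is lowest for Il7r, Il1r1 and Il13ra1 and highest for Il12b, knockout replicate 1 is highest for Il1b, and the 2 Il17ra probe sets place wild-type replicate 1 at opposite ends.

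Single arrays thus set several of these values. With values under 185 raised to it, 4 of the 23 tested members in wild-type replicate 1 (17.4%) were over 2-fold away from the nearest of the other arrays: Il7r, Il1r1 and Il13ra1 below and Il12b above. Over all tested probe sets the share in that array was 15.6%. In knockout replicate 1 this held for 1 member, Il1b (4.35%), against 1.89% of all tested probe sets. In knockout replicate 2 and wild-type replicate 2 it held for 0 members, against 0.792% and 1.11% of all. The Gapdh end-to-end ratio was highest in wild-type replicate 1, but the beta-actin ratio was not. The beta-actin ratio was 14.4 there, against 19.3 and 16.1 in the knockout arrays and 8.86 in wild-type replicate 2. The part of either ratio in these values was not tested.

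The second question was whether interleukins or receptors differed between the genotypes as measured over all probe sets. Of the 53 member probe sets, 23 were bright enough to test: 5 for ligands, 16 for receptors and both regulators. With limma and Benjamini-Hochberg adjustment, 0 of the 23 had an adjusted p under 0.05, against 0.0537% of all 7452. An unadjusted p under 0.05 was also reached by 0 of the 23 in this fit, where over all probe sets 0.778% reached it higher and 1.01% lower. That count moved with the fit: it was 1 with no intensity trend, where the share of all probe sets was not counted. Without the trend Il12b had a limma p of 0.0209 and a limma adjusted p of 0.99, and over all alternatives its adjusted p ran from 0.113 to 1. The adjusted p-values of members ran from 0.992 to 0.997 and the smallest unadjusted limma p was 0.0586, for Il12b. The median SE of the members was 0.48 on the log2 scale.

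Genotypes that did not overlap were found for 7 of the 23. Higher in knockout spleen were 3 (13%), Il1a, Il18 and Il3ra, and lower were 4 (17.4%), Il12b, Il16, Il6st and Il18bp. Over all tested probe sets 14.2% were higher and 12.2% lower without overlap, so the members' counts were near the background. Of the 5 tested ligands 4 had groups that did not overlap, 2 in each direction, and of the 16 tested receptor probe sets 2 did, 1 in each direction. There were 3 lower without overlap with quantile scaling of the arrays, where the groups of Il18bp overlapped. The count was also 3 with the floor at the 40th percentile, where Il12b was at the floor in 3 arrays. Without cross-hybridising probe sets it was 3 too. The Il12b probe set is not of that kind but was then too dim to test.

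**Figure D4:**
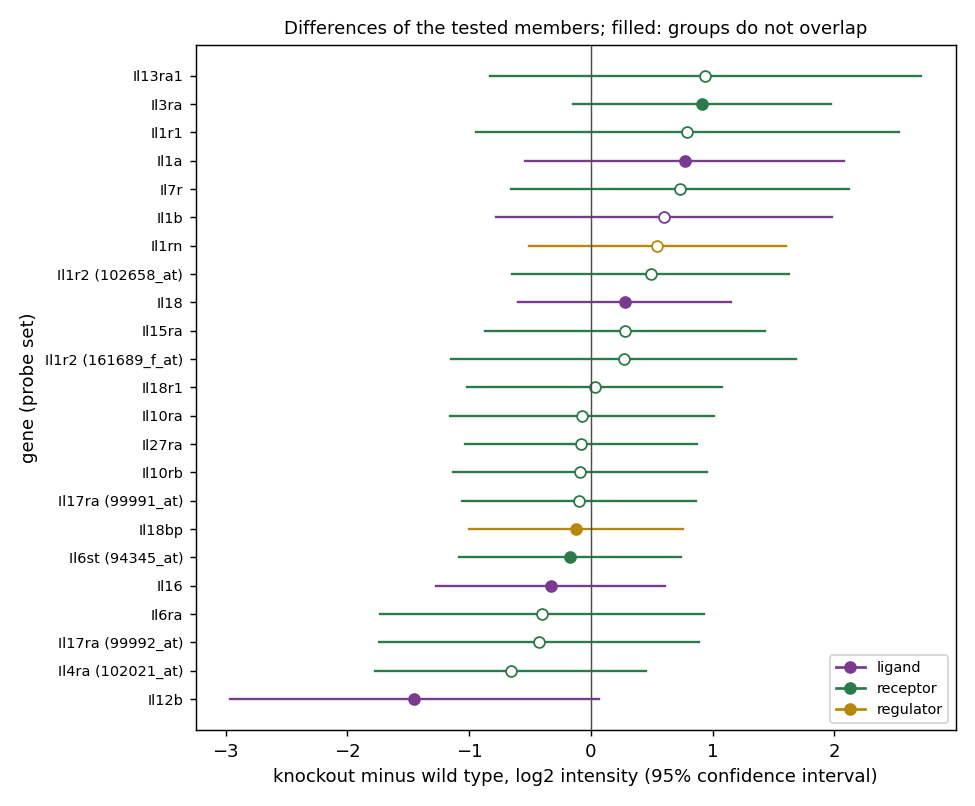
Knockout minus wild type on the log2 scale for the 23 tested probe sets, with limma 95% confidence intervals, by role; filled points mark probe sets whose groups do not overlap. All intervals include 0, and differences run from -1.45 for Il12b to 0.94 for Il13ra1.

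The tested members were spread around 0. Measured values were higher in knockout spleen for 3 ligands and lower for 2, with a median difference of 0.28, and higher for 8 receptor probe sets and lower for 8, with a median of -0.022. The median of all tested probe sets was 0.04. The ligand median rested on 5 genes and was -0.30 without knockout replicate 1.

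The other genes of interleukin signalling, the kinases, STATs, inhibitors and shared chains, were set beside these. Of 35 genes on that list, 26 were measured and 23 tested, with 29 probe sets. None had an adjusted p or an unadjusted limma p under 0.05 (0 of 29), and 21 measured higher and 8 lower in knockout spleen, with a median of 0.21. Without wild-type replicate 1 there were 14 higher and 15 lower, with a median of -0.0013. With all 4 arrays, 3990 of all 7452 tested probe sets measured higher and 3462 lower. Without overlap, 14.2% of all tested probe sets were higher and 12.2% lower. Of the 29 probe sets of this list, groups did not overlap for 4 higher and 4 lower, which is near that background.

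The higher ones were Csf2ra, the binding chain of the GM-CSF receptor (log2 difference 1.07, SE 0.54), Osmr, the oncostatin M receptor chain (1.01, SE 0.51), the kinase gene Jak2 (0.43, SE 0.42) and a probe set of Csf3r, the G-CSF receptor (0.66, SE 0.41). Another Csf3r probe set was lower (-0.65, SE 0.38), so that gene had no single direction. The other lower ones were Cish, an inhibitor of STAT5 signalling (-0.44, SE 0.44), Stat4, the transcription factor of the IL-12 response (-0.28, SE 0.39), and Traf3ip2, the adaptor of the IL-17 receptor (-0.54, SE 0.41). Jak1, the kinase used by most of these receptors, measured 15793 and 14169 in the knockout arrays, with 2944 for wild-type replicate 1 and 15620 for wild-type replicate 2. It thus had the same single low array as Il7r.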

How the data were processed

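The deposited table holds linear intensities of a 1-colour array, 1 column for each of 4 arrays and 12488 probe sets. What software and scaling the authors used is not given in the sources. Trimmed means (2% cut from each end) lay between 2484 and 2494, so the intensities were used as deposited. The 66 control probe sets were left out. Values under 185, the pooled 25th percentile, were raised to it, and log2 was taken, which understates differences of dim genes. Probe sets with a mean intensity above the 40th percentile were tested with limma 3.58.1 in R 4.3.3 (lmFit, eBayes with trend, 5.79 prior df), Benjamini-Hochberg adjusted over all 7452, two-sided, threshold 0.05. The fit was tried on simulated data with an equal spread for all probe sets and without the floor or the filter. That trial therefore does not cover those steps or an array that stands apart. No test compared the levels of different probe sets. The words bright and dim, the background levels, the list sums and the order in the figures are descriptive. Symbols are those of the platform annotation, and all 53 member probe sets matched the RefSeq gene table (GRCm38.p6) by identifier.

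The members, the lists and the naming rule were chosen with earlier results of these data known. The rule named tested members with an unadjusted p under 0.05, those whose groups do not overlap, and a list of well-known interleukin genes, of which 5 are not analysed here. Of the signalling list, genes without overlap are named, and Jak1 was chosen after its values were seen. Replicate numbers are in the titles, but nothing says that they pair animals. Figures were drawn with matplotlib 3.10.9.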

Additional observations from a re-analysis of the deposited data

How the results depend on the processing

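The count of members with an adjusted p under 0.05 was 0 under each of the 13 alternatives run. The count with an unadjusted p under 0.05, 0 as reported, was 1 with no intensity trend (Il12b) and 1 without the filter (Il4). It was 0 under the other alternatives that kept all 4 arrays, but for the block. Fits without 1 array leave 1 array in a group, so their unadjusted counts are not given. The share of all probe sets with such a p was not counted under the alternatives. With the replicate number as a block the adjusted count was 0 too, and the unadjusted count was 1, as Il12b reached p = 0.0419; the correlation between genotypes of the difference between replicates 1 and 2 was 0.0398, so the numbers do not show a pairing. Members with groups that did not overlap, 3 higher and 4 lower, were 6 and 6 without the filter, where 53 were counted, and 1 and 3 with the filter at the 60th percentile, where 16 were. With 1 array left out they ran from 4 to 9 higher and from 6 to 9 lower, as fewer arrays overlap less often: the share of all tested probe sets was then 27.9% to 42.4% higher and 25.9% to 40.6% lower. The ligand median, 0.28, ran from -0.30 to 0.34 with 1 array left out, and moved by more than the replicate spread without knockout replicate 1. Background counts for ligands, 9 in each genotype, were 5 in knockout and 3 in wild-type spleen at the 40th percentile and 3 and 3 against genes of other tissues. Against those genes the wild-type counts were 11 for receptors and 1 for regulators. Shares of all probe sets over these higher levels were not counted. Leaving out 1 array, added after seeing the data, gave 9 to 12 ligands in knockout and 11 to 12 in wild-type spleen.

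Of 284 differences of tested members under the alternatives, 259 kept their sign and side of the threshold and 25 changed sign, 0 of them among the 7 without overlap. The cause was not tested. Il18r1 was -0.047 with quantile scaling and -0.029 with median centring, and Il10rb was 0.027 with quantile scaling. The others changed sign with 1 array left out, where the ranges were -0.47 to 0.53 for Il18r1, -0.32 to 0.16 for Il27ra, -0.054 to 1.03 and -0.56 to 1.09 for the Il1r2 probe sets, -0.30 to 1.5 for Il1b, -0.17 to 2.0 for Il13ra1, -0.80 to 0.011 for Il6ra, -0.28 to 0.84 for Il15ra, -0.55 to 0.40 for Il10ra, -0.17 to 1.63 for Il7r, -0.45 to 0.27 for Il10rb, and -0.44 to 0.24 and -1.20 to 0.35 for the Il17ra probe sets. Il1r1 was -0.21 in the single such fit in which it was bright enough. The number of arrays limits all of these values.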
